A study of Mus musculus with 12 samples.

Results

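The genes described here carry out or restrain regulated cell death: apoptosis, necroptosis and pyroptosis. They are 41 listed mouse genes, all found by symbol among the 17579 genes of the table, and they were listed by function, with no threshold on their values. In apoptosis, BH3-only proteins release the pore formers BAX and BAK from the survival proteins of the BCL2 family, and cytochrome c leaving mitochondria then assembles the apoptosome that activates caspases, which inhibitor of apoptosis proteins hold back. Death receptors reach the same caspases from the cell surface, and where caspase-8 is inactive their signal can pass through RIPK1 and RIPK3 to MLKL, which breaks the membrane in necroptosis. In pyroptosis, inflammatory caspases cut gasdermin D, which opens pores in the membrane and is best known in myeloid cells.

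mRNA was sequenced in 12 libraries, 3 each of R6/1 retina, wt retina, R6/1 striatum and wt striatum. R6/1 mice carry a transgene with exon 1 of human HTT and an expanded CAG repeat under the human promoter, a model of Huntington's disease, and the wt mice were their littermates. All mice were untreated males on a C57Bl/6 background (C57BL/6 J in the study's methods), 13 to 15 weeks old, and both tissues came from the same animals. Each library was made from pooled RNA of several mice, so p-values measure the spread between pools rather than between mice. The question was how far the retina shares the transcriptional changes of the striatum, the brain area most affected in this disease.

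The libraries held between 14070445 and 22432431 estimated counts. Levels are given as CPM, the counts of a gene relative to the total of its library, with TMM scaling over the 12 libraries, and a gene passed a test at an adjusted p under 0.05 (edgeR quasi-likelihood test, Benjamini-Hochberg over all genes tested). The tissue labels fitted the markers: summed rod genes reached 21610 to 30030 CPM in R6/1 retinas and 67030 to 75100 CPM in wt retinas, and at most 8.60 CPM in any striatum. All 13 rod and all 8 cone genes fell in R6/1 retinas, the cone sum being 150.7 to 172.7 CPM against 1122 to 1273 CPM in wt retinas. The sum of 17 microglia and macrophage genes was 99.3 to 115 CPM in R6/1 retinas and 66.5 to 68.8 CPM in wt retinas, 11 of them rose and none was at 0. In bulk tissue, fewer cells of a type and less RNA per cell cannot be told apart, and the part of these shifts in the results below was not tested.

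In the retina, 40 of the 41 genes could be tested, and 8 were higher and 3 lower in R6/1 than in wt. The 8 were Tnfrsf1a, Ripk1, Cflar, Bmf, Bbc3, Bnip3l, Mcl1 and Cycs, and the 3 were Xiap, Bcl2 and Bcl2l11. Of all 16582 genes tested, 9.58% were higher and 12.7% lower (22.3% in either direction), against 20% and 7.5% of the cell death genes. Their median log2 fold change was 0.18, beside 0.01 for all genes. The cell death genes were chosen with earlier results of these data known, so these shares describe the set and do not test it. Pools of the genotypes did not overlap for 14 genes that were higher and 4 that were lower, where 15.3% and 23.0% of all genes did so (38.4% in either direction). Each gene was assigned here to a single side. Among 31 tested genes that promote death 6 rose and 1 fell, and among 9 that restrain it 2 rose and 2 fell, so both kinds moved in both directions. Tnfrsf1a, Ripk1 and Bnip3l were counted as promoting death, although they have other roles given below. Only Bbc3 and Tnfrsf1a changed at least 2-fold among the 11 that passed.

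**Figure D1:**
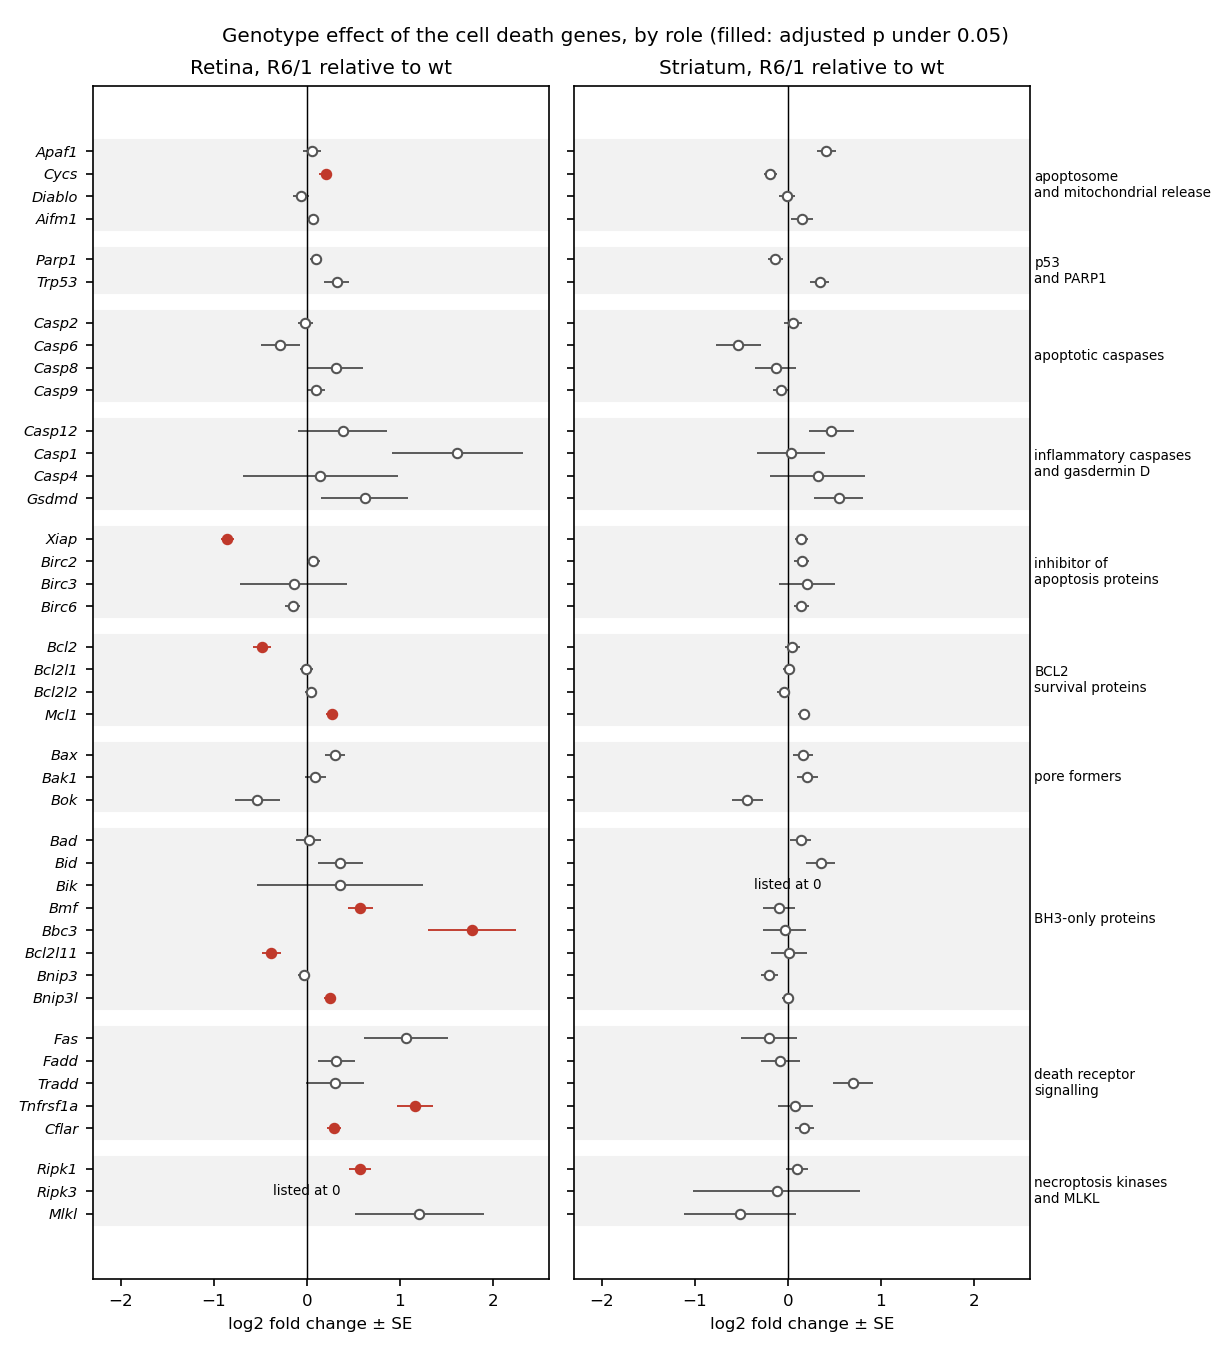
Log2 fold change of R6/1 relative to wt (x axis, with SE) for the cell death genes, in retina (left) and striatum (right), grouped by role. Filled points passed the test: 11 in the retina and 0 in the striatum. Ripk3 in the retina and Bik in the striatum were listed at 0 in all libraries.

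Among receptors and their adaptors, the gene with the clearest rise was Tnfrsf1a (chr6:125349362-125362484, GRCm38), which encodes the main TNF receptor. Its level was 5.73, 9.88 and 7.15 CPM in R6/1 retinas, against 3.21, 3.88 and 3.31 CPM in wt retinas, and the lowest R6/1 pool lay above the highest wt pool. The log2 fold change was 1.16 (SE 0.19, adjusted p = 0.00035). R6/1 striata had 8.31, 8.52 and 5.22 CPM and wt striata 6.99, 6.77 and 7.12 CPM, so that R6/1 pools lay on both sides of wt. The genotype effect was larger in retina than in striatum by 1.05 on the log2 scale (SE 0.30, adjusted p = 0.0433).

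Cflar (chr1:58711508-58758884) encodes FLIP, a caspase-8 homologue without protease activity that blocks death receptor signalling. It stood at 81.0, 76.3 and 81.1 CPM in R6/1 retinas and at 65.3, 59.6 and 73.6 CPM in wt retinas, with no overlap. Its log2 fold change of 0.29 (SE 0.08, adjusted p = 0.00977) no longer passed without wt retina replicate 2 (0.22, adjusted p = 0.0562) or in 1 fit of all 12 libraries (adjusted p = 0.0644). In striata Cflar was lower in both genotypes, with 30.4, 35.6 and 32.6 CPM in R6/1 and 28.4, 32.8 and 26.0 CPM in wt, and the pools overlapped.

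The receptor Fas, the adaptors Fadd and Tradd, and caspase-8, which they recruit, did not pass the test in the retina. Fas had 19, 18 and 13 estimated counts in R6/1 retinas against 10, 4 and 6 in wt retinas, which did not overlap. The log2 fold change was 1.07 (adjusted p = 0.101). Tradd had a log2 fold change of 0.30 in the retina (adjusted p = 0.53) and of 0.70 in the striatum (adjusted p = 0.128), the highest value of any of the genes in the striatum.

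Ripk1 (chr13:34002363-34037147) encodes the kinase at which survival, apoptotic and necroptotic signals of the TNF receptor part. It reached 15.2, 13.3 and 13.7 CPM in R6/1 retinas and 10.2, 10.4 and 8.59 CPM in wt retinas, with every R6/1 pool above every wt pool. The log2 fold change was 0.57 (SE 0.12, adjusted p = 0.00176). In striata the levels were 7.50, 7.96 and 8.69 CPM in R6/1 and 7.35, 7.63 and 7.49 CPM in wt, which overlapped, and the difference between the tissues was 0.44 (SE 0.16, adjusted p = 0.114) and did not pass.

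The partners of Ripk1 in necroptosis were near the limit of these libraries. Ripk3, the kinase that RIPK1 engages, had 0 counts in all 6 retinas, which allows up to 3 counts or 0.154 to 0.22 CPM per library by counting error alone, and 0 to 4 counts in striata. Mlkl, the membrane-breaking effector, had 5, 8 and 4 counts in R6/1 retinas and 2 in each wt retina, which did not overlap but did not pass (log2 fold change 1.21, adjusted p = 0.238). Hence only Ripk1 of these 3 genes could be measured with precision.

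Genes of pyroptosis were likewise low in the retina. Casp1, the protease of inflammasomes, had 5, 8 and 6 counts in R6/1 retinas, against 1, 2 and 2 counts in wt retinas (log2 fold change 1.62, SE 0.70, adjusted p = 0.113). Those pools did not overlap, whereas striata held 16 to 29 counts in R6/1 and 16 to 21 in wt. Casp4, the sensor of bacterial lipopolysaccharide in the cytosol, Casp12 and the pore former Gsdmd did not pass in either tissue, with log2 fold changes of 0.15 to 0.62 in the retina and 0.32 to 0.55 in the striatum. The sum of microglia and macrophage genes, higher in R6/1 retinas as given above, was 545 to 586 CPM in R6/1 striata and 576 to 628 CPM in wt striata, where none of the 17 passed, and its part in the counts of Casp1 was not tested.

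**Figure D2:**
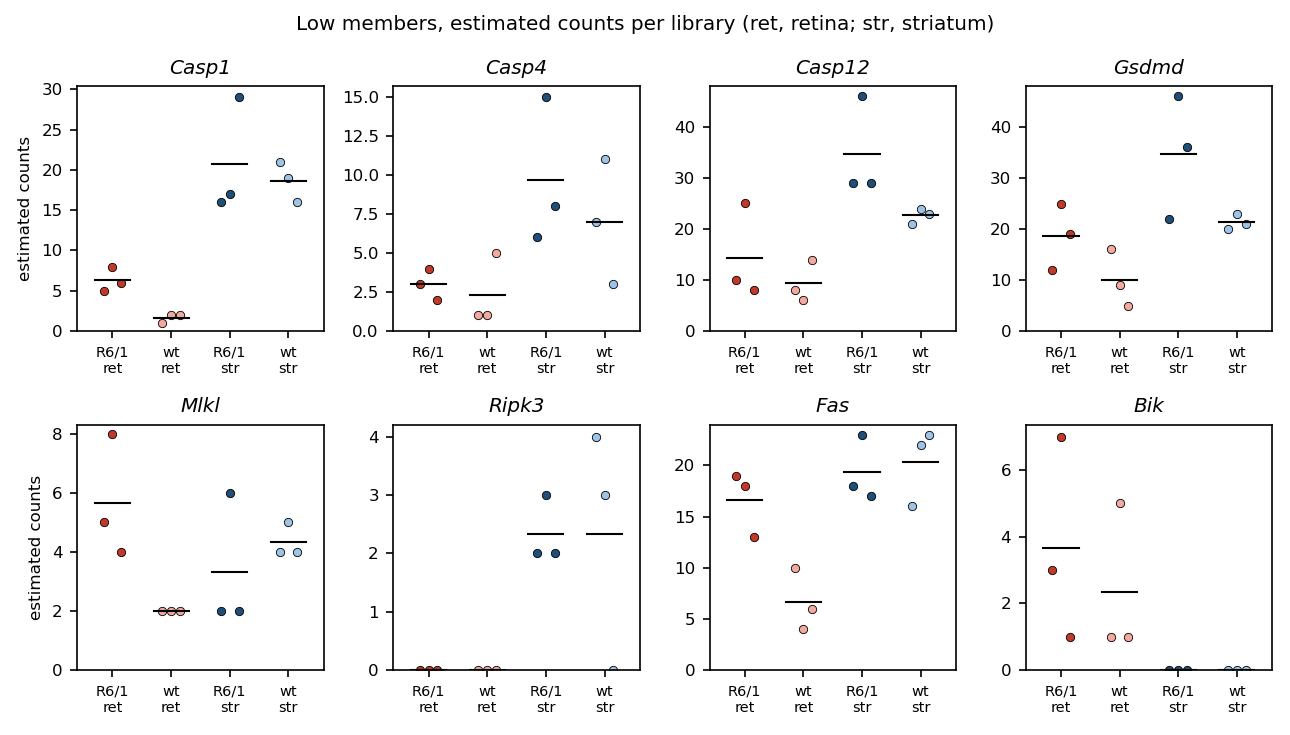
Estimated counts per library (y axis, dots) of 8 cell death genes with few counts, with the group mean as a line, in R6/1 and wt retina and striatum. Casp1 held 5 to 8 counts in R6/1 retinas and 1 to 2 in wt retinas, Ripk3 was at 0 in all retinas and Bik at 0 in all striata.

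Promoter sequences are shown for the genes that passed in the retina and whose window, 250 bases before to 30 after a RefSeq transcription start (GRCm38.p6), holds an interferon or STAT motif, since these factors act on many genes of inflammation. Capitals mark GAAANNGAA, the core of the interferon-stimulated response element, and TTCNNNGAA, the core of a STAT site, searched on both strands. In Ripk1 (chr13:34002624-34002903, plus strand, as for the other 3), the 2 motifs overlap at the start, and another STAT core lies upstream. Tnfrsf1a (chr6:125349473-125349752) has a STAT core far upstream of the start of its window. Cflar (chr1:58711241-58711520) has an interferon core just after the start, and Xiap (chrX:42068148-42068427), which fell, an interferon core before it. The windows shown for Tnfrsf1a, Ripk1 and Xiap begin inside the annotated genes, so positions there refer only to the RefSeq start of that window. Ripk1 and Xiap have other starts, whose full windows held neither motif. They are chr13:34002113-34002412 for Ripk1, and chrX:42067586-42067885 and chrX:42070992-42071291 for Xiap.
Ripk1: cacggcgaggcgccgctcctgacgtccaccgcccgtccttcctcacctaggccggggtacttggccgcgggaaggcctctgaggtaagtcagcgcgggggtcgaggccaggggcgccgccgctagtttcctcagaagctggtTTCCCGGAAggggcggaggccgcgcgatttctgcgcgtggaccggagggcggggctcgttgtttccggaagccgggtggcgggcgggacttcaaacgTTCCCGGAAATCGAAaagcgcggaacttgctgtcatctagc
Tnfrsf1a: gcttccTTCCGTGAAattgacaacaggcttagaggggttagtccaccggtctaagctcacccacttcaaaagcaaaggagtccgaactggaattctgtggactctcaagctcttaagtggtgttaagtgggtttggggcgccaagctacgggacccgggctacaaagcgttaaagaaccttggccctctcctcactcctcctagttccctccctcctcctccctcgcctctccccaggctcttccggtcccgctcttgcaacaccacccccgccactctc
Cflar: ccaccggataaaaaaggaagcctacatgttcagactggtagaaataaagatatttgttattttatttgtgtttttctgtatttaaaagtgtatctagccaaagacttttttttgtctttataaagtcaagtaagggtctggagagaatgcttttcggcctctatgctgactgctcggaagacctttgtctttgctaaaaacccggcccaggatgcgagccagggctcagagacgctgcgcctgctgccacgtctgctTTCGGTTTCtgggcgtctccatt
Xiap: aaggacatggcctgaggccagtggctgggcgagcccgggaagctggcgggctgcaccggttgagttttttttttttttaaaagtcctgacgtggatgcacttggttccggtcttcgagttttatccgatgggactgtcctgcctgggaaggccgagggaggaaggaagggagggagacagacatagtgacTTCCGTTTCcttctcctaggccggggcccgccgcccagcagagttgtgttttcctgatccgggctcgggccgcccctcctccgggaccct
Full windows, which reach 50 bases past the start, were given for 37 of the 41 genes, 50 windows in all, and 8.0% of them held the interferon core, against 8.56% of 32851 windows of all genes. The STAT core was in 8.0% of them, against 8.30%. The G-rich SP site GGGCGG was in 60.0%, against 35.7%. A match is a stretch of letters and says nothing about binding.

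Of the 8 BH3-only genes, which start the mitochondrial route, 3 rose and 1 fell in R6/1 retinas. Bmf (chr2:118528757-118549687), whose product senses damage to the cytoskeleton, reached 19.2, 20.0 and 16.5 CPM in R6/1 retinas and 12.7, 15.3 and 10.4 CPM in wt retinas, which did not overlap (log2 fold change 0.58, SE 0.13, adjusted p = 0.00491). In striata its levels overlapped at 3.35, 3.01 and 3.19 CPM in R6/1 and 2.99, 3.61 and 3.56 CPM in wt. Bnip3l (chr14:66985239-67008877), a receptor for the removal of mitochondria by autophagy, had 208, 182 and 179.6 CPM in R6/1 retinas and 164, 164 and 160.2 CPM in wt retinas (log2 fold change 0.25, SE 0.07, adjusted p = 0.00986). Its retinal pools did not overlap, and its striatal pools did, with 167, 161 and 160.7 CPM in R6/1 and 167, 163 and 157 CPM in wt.

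Bbc3 (chr7:16308393-16318205) encodes PUMA, a p53 target that binds all survival proteins of the family. It was a low gene, with 34, 44 and 17 counts in R6/1 retinas and 14, 4 and 5 counts in wt retinas, and the lowest R6/1 pool, at 0.94 CPM, lay just above the highest wt pool, also at 0.94 CPM. The log2 fold change of 1.78 (SE 0.47, adjusted p = 0.0145) was lost without R6/1 retina replicate 1 (1.70, adjusted p = 0.0526), wt retina replicate 2 (1.53, adjusted p = 0.0707) or wt retina replicate 3 (1.46, adjusted p = 0.069). Striata had 28, 40 and 32 counts in R6/1 and 25, 39 and 30 in wt, which overlapped.

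Bcl2l11 (chr2:128126038-128162547) encodes BIM, another BH3-only protein, and moved the other way. Its level was 13.4, 14.6 and 17.0 CPM in R6/1 retinas and 21.4, 19.8 and 18.6 CPM in wt retinas, without overlap. It fell by 0.38 on the log2 scale (SE 0.11, adjusted p = 0.016), and did not pass without R6/1 retina replicate 1 (adjusted p = 0.0581) or wt retina replicate 1 (adjusted p = 0.0856), with library totals (0.0715) or in 1 fit of all 12 libraries (0.0558). In striata it had 3.53, 4.99 and 4.78 CPM in R6/1 and 4.54, 3.66 and 5.10 CPM in wt, which overlapped.

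The other BH3-only genes, Bad, Bid, Bik and Bnip3, did not pass, their log2 fold changes in the retina lying between -0.03 for Bnip3 and 0.36 for Bid and Bik. Bik had 1 to 7 counts in retinas and 0 in all striata. The pore formers Bax, Bak1 and Bok did not pass either: Bax, at 0.30 (SE 0.11, adjusted p = 0.0531), was just outside the threshold, and Bok, a relative that depends less on BH3-only proteins, had a log2 fold change of -0.53 (adjusted p = 0.129). Bax pools were 15.6, 14.5 and 13.7 CPM in R6/1 retinas and 12.9, 12.2 and 11.1 CPM in wt retinas, and did not overlap.

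Survival genes of the BCL2 family split. Bcl2 (chr1:106538178-106714274), the founding member, was at 21.8, 26.5 and 23.8 CPM in R6/1 retinas, against 32.3, 39.1 and 31.4 CPM in wt retinas, and the groups did not overlap. It fell by 0.48 on the log2 scale (SE 0.10, adjusted p = 0.00188). Its striatal pools overlapped, at 38.1, 37.4 and 35.5 CPM in R6/1 and 35.6, 38.6 and 32.8 CPM in wt. The genotype effect differed between retina and striatum by -0.56 (SE 0.14, adjusted p = 0.0227).

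Mcl1 (chr3:95658788-95663176), a short-lived survival protein, was at 84.4, 92.2 and 89.8 CPM in R6/1 retinas and 73.2, 75.8 and 77.2 CPM in wt retinas, which did not overlap. The log2 fold change was 0.27 (SE 0.06, adjusted p = 0.00518). R6/1 striata had 69.7, 75.7 and 74.2 CPM and wt striata 64.0, 67.1 and 63.7 CPM, which did not overlap either, with a log2 fold change of 0.17 that did not pass (adjusted p = 0.182), and the difference between the tissues was 0.06 (SE 0.08, adjusted p = 0.706). Bcl2l1 and Bcl2l2, which encode BCL-XL and BCL-W, had log2 fold changes of -0.01 and 0.04 in the retina.

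Downstream of the pore, Cycs (chr6:50562563-50566538), the gene of somatic cytochrome c, which also carries electrons in the respiratory chain, was at 97.4, 83.8 and 94.2 CPM in R6/1 retinas and 82.7, 80.2 and 81.3 CPM in wt retinas. The pools did not overlap by a small margin, and the log2 fold change was 0.20 (SE 0.07, adjusted p = 0.0379). That call was lost without any single retinal library other than R6/1 replicate 2, with adjusted p between 0.0891 and 0.116, and in 1 fit of all 12 libraries. In striata the levels were 124, 136.7 and 121 CPM in R6/1 and 147, 149 and 137.3 CPM in wt. These did not overlap, again by a small margin, with a log2 fold change of -0.19 (adjusted p = 0.19). The difference between the tissues was 0.36 (SE 0.10, adjusted p = 0.0347), and it did not pass with the replicate number as a block (adjusted p = 0.0768).

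Apaf1, the scaffold of the apoptosome, Diablo, which releases caspases from XIAP, and Aifm1, a mitochondrial flavoprotein, did not pass in the retina, with log2 fold changes of 0.05, -0.06 and 0.07. The caspases of apoptosis among the 41 genes, Casp2, Casp6, Casp8 and Casp9, lay between -0.29 and 0.31. Trp53, which encodes p53, had a log2 fold change of 0.32 (adjusted p = 0.107) and Parp1, a DNA damage sensor that caspases cut, one of 0.10 (adjusted p = 0.315).

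Xiap (chrX:42059679-42109656), the inhibitor of apoptosis protein that binds caspases directly, showed the smallest adjusted p of the 41 genes in the retina. R6/1 retinas had 555, 494 and 522 CPM, against 962, 983 and 953 CPM in wt retinas, far from overlapping. It fell by 0.85 on the log2 scale (SE 0.07, adjusted p = 1.12e-07). R6/1 striata had 208, 201 and 192 CPM and wt striata 192, 176 and 174 CPM, so that Xiap was lower in striata of both genotypes and its striatal pools overlapped.

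The genotype effect on Xiap differed between the tissues by -1.03 (SE 0.09, adjusted p = 3.7e-05). Its fall ran beside that of rod and cone genes given above, and whether photoreceptor content had a part in it was not tested. Of the other inhibitors, Birc2, Birc3 and Birc6 had log2 fold changes of 0.07, -0.14 and -0.15 and did not pass.

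**Figure D3:**
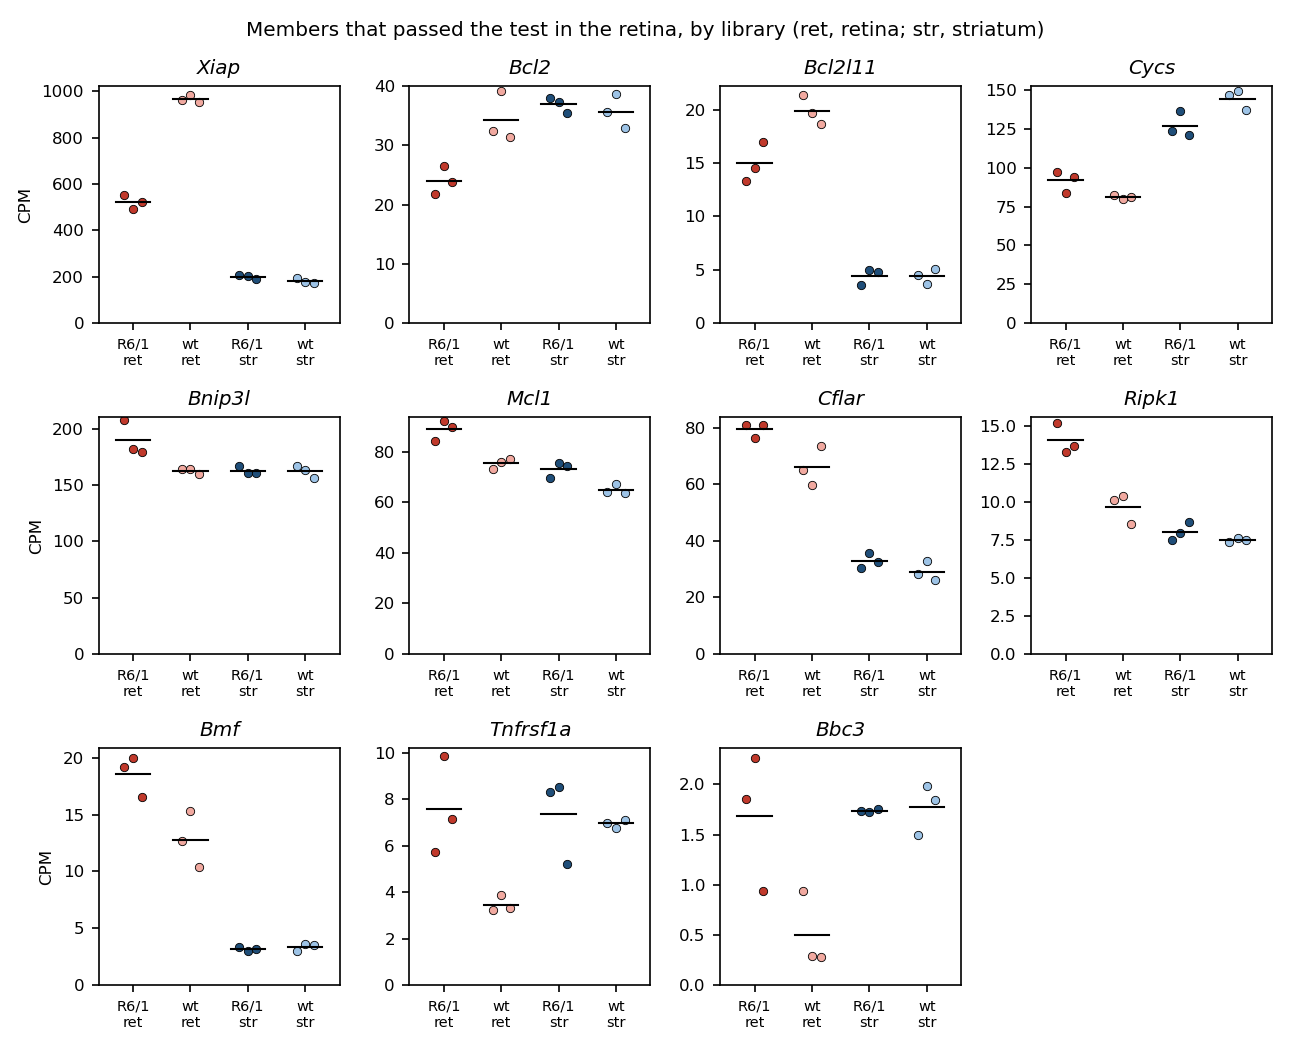
Level in CPM (y axis, starting at 0) of the 11 cell death genes that passed in the retina, in each library (dots) with the group mean (line), in R6/1 and wt retina and in R6/1 and wt striatum. Xiap lay at 494 to 555 CPM in R6/1 retinas and at 953 to 983 CPM in wt retinas, and near 200.1 CPM on average in R6/1 striata.

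In the striatum none of the 40 genes tested passed with edgeR (0 genes, beside 1.45% of 16728 genes, 0.132% higher and 1.32% lower). At an unadjusted p under 0.05 there were 6 of the 40, where 3318 of all 16728 genes were, limma-voom called 0 and DESeq2 called 1. Pools did not overlap for 8 genes that were higher and 1 that was lower, against 12.8% and 12.7% of all genes (25.6% in either direction). The smallest adjusted p was that of Apaf1 (chr10:90989311-91082770), at 20.7, 19.2 and 23.1 CPM in R6/1 striata and 15.7, 16.5 and 14.9 CPM in wt striata, a log2 difference of 0.42 that did not pass (SE 0.10, adjusted p = 0.0815). With the replicate number as a block Apaf1 passed (0.41, adjusted p = 0.0338), as it did with DESeq2 (adjusted p = 0.0451).

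One wt striatal library bears on this count. By rank correlation over genes wt striatum replicate 2 was at 0.993 to 0.994 with R6/1 striata and at 0.992 to 0.993 with the other wt striata. Without it 4 of the 40 genes passed, where 1916 of all 16567 genes did: Apaf1 (log2 fold change 0.46) and Trp53 (0.44) were higher, Bok (-0.57) and Bnip3 (-0.29) lower. The 14 medium spiny neuron genes summed to 1730 to 3159 CPM in R6/1 striata and 5116 to 7080 CPM in wt striata, and 1 of them passed.

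Whether R6/1 and wt differed more in one tissue than in the other could be tested for 39 genes, of which 4 passed (8.24% of 15731 genes passed, 3.38% higher and 4.86% lower). Tnfrsf1a and Cycs had the higher effect in the retina, and Xiap and Bcl2 the lower. The other 7 genes that passed in the retina did not pass here, so that they are not shown to differ between the tissues. Of these, Bbc3 passed with DESeq2 (adjusted p = 0.048), without wt retina replicate 1 (0.0171) or without R6/1 retina replicate 3 (0.034). Bmf passed only without wt retina replicate 2 (0.0411). Leaving out 1 library brought the count down to as few as 1, without wt striatum replicate 1, when Xiap alone passed, and 2 passed without wt retina replicate 2 or 3, R6/1 retina replicate 1, wt striatum replicate 3, or R6/1 striatum replicate 1 or 3. Of 20 alternatives, Xiap kept its call in all, Bcl2 in 15, and Tnfrsf1a and Cycs in 11 each.

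Other genes of the same pathways were taken from 6 lists. Of the list of caspases and their regulators, Naip5, a sensor of bacterial flagellin with close paralogs that can share its reads, rose by 2.33 on the log2 scale (adjusted p = 0.0378) at under 1 CPM. Birc5, which encodes survivin, and Cradd, an adaptor of caspase-2, had log2 fold changes of -1.73 (adjusted p = 0.066) and 0.37 (adjusted p = 0.0739).

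The counts that follow for the retina stand beside 9.58% of all genes higher and 12.7% lower. Of 19 further death receptor genes 1 rose and 5 fell (median 0.02). Those with the smallest p were Tnfaip3, an inhibitor of NF-kB known as A20 (-0.55, adjusted p = 1.28e-05), Tnfsf12, the ligand TWEAK (-0.58, adjusted p = 0.000104), Ngfr, the p75 neurotrophin receptor (-0.64, adjusted p = 0.000487), and Faim, an inhibitor of Fas (-0.36, adjusted p = 0.00192). Of 12 further genes listed with the BCL2 family 1 fell, Bcl2l15 (-1.10, adjusted p = 0.00662). The list also holds Vdac1, Vdac2, Vdac3, Ppif, Bag1 and Bag3, which are outside the family. Among these, Vdac3, Vdac1 and Bag3 had adjusted p of 0.0544 to 0.301. In the striatum Hrk, a neuronal BH3-only gene of this list, fell to 17.8, 17.4 and 21.4 CPM in R6/1, against 69.4, 36.1 and 52.9 CPM in wt (log2 fold change -1.49, adjusted p = 0.0455). The difference of its genotype effects, retina minus striatum, was 1.17 and did not pass (adjusted p = 0.277). Over all genes 220 were lower in the striatum, but 1, 5 and 6 without wt striatum replicate 1, wt striatum replicate 3 or R6/1 striatum replicate 1. Whether Hrk was among them was not examined.

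Of 17 further necroptosis genes Tab3 (-0.46, adjusted p = 3.73e-05) and Ikbkg (-0.27, adjusted p = 0.00414) fell, and Map3k7, the kinase TAK1 that holds RIPK1 in its survival mode, rose (0.18, adjusted p = 0.0358), while Tab2 had 0.17 (adjusted p = 0.056). Of 12 further inflammasome genes 1 rose, Nek7, a partner of NLRP3 (0.24, adjusted p = 0.018), and Il18, Gsdme and Card6 had adjusted p of 0.143 to 0.34. Of 22 further p53 targets and regulators 0 rose and 2 fell: Ddit4 (-0.63, adjusted p = 1.77e-05) and Tigar (-0.20, adjusted p = 0.0335). Bbc3, a p53 target that rose as given above, is one of the 41 genes and so is not counted in that list. Polk and Ei24 of that list had 0.20 (adjusted p = 0.0522) and 0.17 (adjusted p = 0.0565). In the striatum 1 gene of the necroptosis list rose, Chuk (0.42, adjusted p = 0.0279), and 1 of the p53 list, Rrm2b (0.44, adjusted p = 0.0346). None of these 2 lists fell, where 0.132% of all genes were higher and 1.32% lower. Without wt striatum replicate 1 or 3, or R6/1 striatum replicate 1, 0 of all genes passed as higher, so both rises were lost.

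How the tissues differ in these genes was compared between wt retina and wt striatum, which are also the references of both genotype comparisons. Of 39 genes tested 15 were higher and 13 lower in wt retina, beside 37.8% and 38.5% of all genes (76.3% in either direction). Pools did not overlap for 17 genes that were higher, Bik with too few counts for the test among them, and 17 that were lower (39.4% and 39.7% of all genes, 79.1% in either direction). Of the genes higher in wt retina, Xiap differed most, by 2.42 (SE 0.07), followed by Bcl2l11 (2.17), Bmf (1.90), Cflar (1.18) and Diablo (1.03). Casp1 was lower in wt retina by the widest margin (-3.22, SE 0.51), followed by Bok (-1.89), Birc3 (-1.88), Bbc3 (-1.82) and Fas (-1.41). These 10 passed in all 15 alternatives tried.

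Per length of merged exons, Xiap was the highest of the 41 genes in wt retina, at 102 CPM per kb, and stood second in R6/1 retina, at 55.3, close below Bnip3 at 57.2. In wt striatum Bnip3, Cycs and Bnip3l came first, at 44.8, 42.5 and 42.1 CPM per kb, while Xiap was at 19.1. Bcl2l2, Mcl1 and Parp1 were among the 8 highest in all 4 groups. In R6/1 retinas 9 genes averaged under 1 CPM and 5 at least 100 CPM, and in wt retinas 10 and 5.

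**Figure D4:**
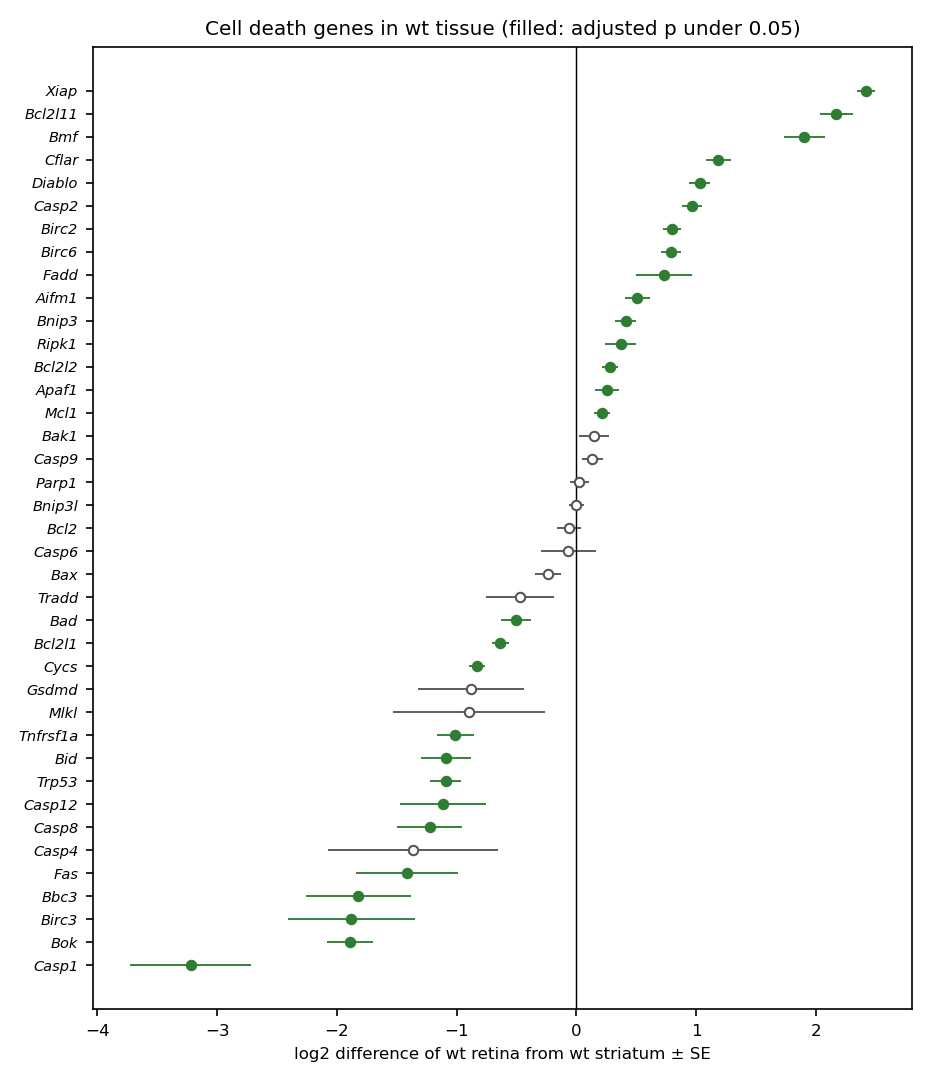
Log2 difference, wt retina over wt striatum, with SE (x axis) for the 39 cell death genes that could be tested, ordered from the highest to the lowest. Filled points passed the test, 15 higher and 13 lower in wt retina, from Xiap at 2.42 to Casp1 at -3.22.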

How the data were processed

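Libraries were stranded mRNA libraries, and per the labels and the study's methods reads were base-called with CASAVA, trimmed with Trimmomatic and quantified with Salmon on GRCm38/mm10, with versions not given in the sources used here. The deposited table holds the authors' estimated counts per gene as whole numbers, not normalized, for 17579 genes, and symbols came from GENCODE M21. The summing of transcripts to genes is not given. Genotypes were compared with edgeR 4.0.16 in R 4.3.3 (quasi-likelihood, robust, TMM, at least 10 counts over the libraries compared). P-values were adjusted by Benjamini-Hochberg over all genes tested. SE is the log2 fold change over the root of F. Results were recomputed with DESeq2 1.42.0, with voom of limma 3.58.1, with other scalings and count filters, the replicate number as a block, 1 fit of all 12 libraries, and leaving out each library.

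Every gene that passed in a tissue or for the difference is named with the value of each library, others by role. Up to 4 genes of each further list with the smallest p in the retina are named, and up to 5 in each direction between wt tissues. Results that this rule would also name, with the counts of their list, are left out here. Hrk, Chuk and Rrm2b were named after their values were seen. The members, lists and rule were chosen with earlier results of these data known. Scripts were tested on simulated data. In striata, deviations of equally numbered libraries correlated at 0.274, 0.329 and 0.257 over 10445 genes, each over 0.1, so that blocked values are given. Of the unequally numbered ones, R6/1 replicate 3 and wt replicate 1 correlated nearly as well, at 0.24, and the rest at -0.389 to -0.042. Labels do not state the pairing, and in retinas (0.124, -0.094 and 0.051) numbers were not taken as pairs. Retina and striatum came from the same animals in both genotypes, per the study. Between these tissues the correlations were 0.242, 0.119 and 0.179 in R6/1 and -0.026, 0.019 and 0.001 in wt. Blocked values are therefore given for the difference too where they change a call.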

Additional observations from a re-analysis of the deposited data

Results flagged for a closer look

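The genotype effect of 4 genes differed between retina and striatum by the test of that difference (edgeR, 39 genes tested). For Xiap the difference, retina minus striatum, was -1.03 (adjusted p = 3.7e-05) and kept its call in all 20 alternatives. For Bcl2 it was -0.56 (adjusted p = 0.0227), with adjusted p between 0.00675 and 0.0579 over the alternatives. For Tnfrsf1a it was 1.05 (adjusted p = 0.0433, between 0.025 and 0.109), and for Cycs 0.36 (adjusted p = 0.0347, between 0.0103 and 0.0805), where Cycs did not pass with the replicate block (adjusted p = 0.0768). In Cycs, R6/1 pools were above wt pools in the retina and below them in the striatum, though the striatal change did not pass by itself. Both gaps were small: the nearest pools were 83.8 (R6/1) and 82.7 CPM (wt) in retina, and 136.7 (R6/1) and 137.3 CPM (wt) in striatum.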

How the results depend on the processing

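In the retina, 8 to 11 of the genes passed when 1 library was left out. Over all genes 2517 to 3583 passed in those fits, beside 3691 with all 6 retinal libraries. Xiap, Bcl2, Tnfrsf1a, Ripk1, Bmf, Bnip3l and Mcl1 passed in all 15 alternatives, Cflar in 13, Bbc3 in 12, Bcl2l11 in 11 and Cycs in 9. With library totals 12 genes were higher and 2 lower, against 8 and 3 with TMM, and Trp53, Parp1 and Aifm1 passed too (adjusted p = 0.0249, 0.0193 and 0.0436). Bax passed with filterByExpr (adjusted p = 0.0443), library totals (0.00855) and the replicate block (0.0436). Replicate numbers were not taken as pairs in the retina, so the blocked value carries no weight there. In the striatum 1 gene, Apaf1, passed with DESeq2, library totals, the replicate block or 1 fit of all 12 libraries, and between 0 and 4 passed when 1 library was left out. For the difference of genotype effects between 1 and 4 passed when 1 library was left out, and 3 with the replicate block, without Cycs. The cause of these shifts was not tested. In the striatum 16 of the 40 genes took both signs over the settings, none of them past the threshold in any. They included Bcl2 without wt striatum replicate 3 (-0.008, with values up to 0.11 when another library was left out) and Tnfrsf1a without R6/1 striatum replicate 1 (-0.016) or 2 (-0.043, with values up to 0.27). Over all genes 242 passed in the striatum, but 982 with DESeq2, 429 with library totals, 1663 with the replicate block, 1300 in 1 fit of all 12 libraries and 1 to 1916 with 1 library left out, and for the difference 767 to 1999, beside 1296. With library totals the median over all genes was 0.13 (retina) and 0.12 (striatum), with 3886 higher and 1445 lower genes in the retina (1588 and 2103 with TMM), 220 and 209 in the striatum (22 and 220), and 637 and 555 for the difference (531 and 765). The block changed no other call in the genotype comparisons beyond those of Bax, Apaf1 and Cycs. Casp1, Casp4, Mlkl, Ripk3 and Bik had at most 8 counts in any retina, which limits their precision.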
